A study of Mus musculus with 9 samples.

Results

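Metallothioneins are represented in these retinal arrays by Mt1, Mt2 and Mt3, 3 of 23895 genes tested. The members were taken as every non-control probe whose transcript accession maps to one of these symbols, which gave 1 probe per gene: A_66_P111660 for Mt1 (NM_013602), A_51_P246317 for Mt2 (NM_008630) and A_52_P320971 for Mt3 (NM_013603). All 3 probes were well above background on all 9 arrays, and none had an outlier or saturated spot. The fit across all genes called 0 of the 3 members in any comparison, and the point estimates lay between a fall of 0.25 and a rise of 0.23 on the log2 scale.

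The study measured retinal RNA of adult male C57BL/6 mice 7 days after an injection into the vitreous of the right eye. The groups were peptide AAP, peptide HAN and phosphate-buffered saline (PBS), the negative control, with 3 arrays each. Per the series title, AAP and HAN are high-affinity peptides against vascular endothelial growth factor, and the labels give a dose of 1 µM, worded to include PBS. Each group drew on 12 mice, with 4 retinas to a pool, so n counts pools. The limma p-values set group differences against the spread between pools, in an estimate that also borrows from other genes. The labels describe no uninjected eye, so every group had been injected.

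Metallothioneins are small cysteine-rich proteins that bind zinc and copper and scavenge oxidants. Mt1 and Mt2 are inducible in many tissues: metals act through the transcription factor Mtf1, which binds metal response elements (MREs) in their promoters, and glucocorticoids and interleukin-6 signalling through STAT3 also raise them. In the retina they are known as genes that rise in Mueller glia and other cells after injury or light damage. Mt3 is the form typical of brain and other nervous tissue, is linked to zinc in neurons, and responds little to metals.

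In the RefSeq annotation of GRCm38.p6 the family sits in a cluster on mouse chromosome 8 in the order Mt4, Mt3, Mt2, Mt1, with only the long non-coding RNA gene Gm39227 listed within it, between Mt3 and Mt2. The 250 bases before each member's annotated start, on the plus strand, are shown because the MRE is the element by which Mt1 and Mt2 are best known and because the members share a neighbourhood. Capitals mark matches to the MRE core, searched as TGCACNC and TGCGCNC on both strands. The sequences are from RefSeq, build GRCm38.p6.
Mt1, chr8:94178839-94179088: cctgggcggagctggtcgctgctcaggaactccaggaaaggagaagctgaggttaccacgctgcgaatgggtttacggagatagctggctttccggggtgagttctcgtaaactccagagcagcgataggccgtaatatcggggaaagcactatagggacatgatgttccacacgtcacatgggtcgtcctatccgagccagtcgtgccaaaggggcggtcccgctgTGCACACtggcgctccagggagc
Mt2, chr8:94172368-94172617: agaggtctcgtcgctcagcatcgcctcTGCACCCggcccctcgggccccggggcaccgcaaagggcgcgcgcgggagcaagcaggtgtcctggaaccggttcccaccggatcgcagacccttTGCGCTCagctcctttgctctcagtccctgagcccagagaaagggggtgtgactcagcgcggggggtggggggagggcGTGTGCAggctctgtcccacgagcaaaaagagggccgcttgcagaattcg
Mt3, chr8:94152357-94152606: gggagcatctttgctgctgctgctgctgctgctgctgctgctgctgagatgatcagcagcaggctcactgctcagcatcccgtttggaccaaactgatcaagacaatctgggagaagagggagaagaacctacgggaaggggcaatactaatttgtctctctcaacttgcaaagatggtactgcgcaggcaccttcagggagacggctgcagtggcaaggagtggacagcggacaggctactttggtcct

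In these 250 bases the MRE core had 3 matches in Mt2, 1 match in Mt1 and 0 in Mt3. Of 32851 promoter windows of that length, 21.4% held at least 1 match and 1.26% held at least 3. Over the whole 300-base window, which adds the bases after the annotated start, the counts were 4 for Mt2, 3 for Mt1 and 1 for Mt3, and 25.7%, 1.97% and 0.517% of windows held at least 1, 3 and 4 matches. The antioxidant response element core, searched as TGACNNNGC on both strands, had 1 match in Mt2, 79 to 71 bases before the start (recorded as -79 to -71), and 0 in Mt1 and Mt3; 10.2% of the 250-base windows held one. No match overlapped one of the other motif. All these counts depend on where the annotated start sets the window, and bases beyond it were not searched. For Mt1, MRE core matches at bases 3 to 9 and 21 to 27 lie after that start. A count of 0 thus does not show that a gene lacks the element. These are matches of letters and not measured binding sites.

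The arrays resembled a retina and each other: all 13 rod markers and all 16 Mueller glia and astrocyte markers were well above background on all 9 arrays, and r across genes was 0.980 to 0.995 within groups. Pools differed in markers of tissues next to the retina and of blood. The summed signal of 15 lens markers, as a percentage of its PBS mean, was 37.6% in AAP 1, 253% in AAP 2 and 22.4% in AAP 3, against 112% to 166% in HAN and 18.9% to 141% in PBS. The summed signal of 12 skeletal muscle markers was, as a percentage of its PBS mean, 4333% in AAP 1, 110% in AAP 2 and 1760% in AAP 3, against 103% to 114% in HAN and 91.9% to 104% in PBS. The summed signal of 8 cornea, iris and ciliary body markers was highest in AAP 1 (659%), and ran from 21.4% to 49.5% in the other AAP pools, 45.2% to 113% in HAN and 25.0% to 246% in PBS. For 6 red blood cell markers the sum was 224% in AAP 1, 54.6% in AAP 2 and 50.9% in AAP 3. It ran from 79.8% to 89.9% in HAN and from 69.3% to 145% in PBS. AAP 3 was the dimmest array, with a 75th percentile of 1340 intensity units against 1930 to 2349 on the others. The arrays came from 3 slides: slide 1 held AAP 1 and the 3 PBS pools, slide 2 held AAP 2, AAP 3, HAN 1 and HAN 2, and slide 3 held HAN 3.

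Mt1 was near the PBS level after AAP and slightly below it after HAN. Levels are log2 values relative to the 75th percentile of each array. They were 5.21, 4.99 and 5.07 in AAP 1, AAP 2 and AAP 3, then 4.78, 4.88 and 4.92 in HAN 1, HAN 2 and HAN 3, and 4.99, 5.03 and 5.05 in PBS 1, PBS 2 and PBS 3. AAP 1 was the highest array and AAP 2 and AAP 3 lay within or just above the PBS range, while all 3 HAN pools lay below all PBS pools. The group means were 5.09 ± 0.11 in AAP, 4.86 ± 0.07 in HAN and 5.02 ± 0.03 in PBS (SD, n = 3 each).

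Mt1 differed by 0.07 on the log2 scale in AAP against PBS (SE 0.07, 95% interval -0.10 to 0.24, limma adjusted p = 0.867), a fold of 1.05 with an interval of 0.932 to 1.18. In HAN against PBS it differed by -0.16 (-0.33 to 0.01, adjusted p = 0.537), a fold of 0.894. With normexp background correction this difference was -0.31 (-0.55 to -0.06, adjusted p = 0.534), over 1.5 times the size, and also did not pass. The 13 rod markers had a median of 0.00 in AAP against PBS and of -0.16 in HAN against PBS, where 12 of the 13 lay below 0. All 15 lens markers lay above 0 in HAN against PBS (median 1.03) and below 0 in AAP against HAN (median -1.33), and 9 of 11 pigment epithelium markers lay below 0 in HAN against PBS (median -0.31). The part of these markers in the Mt1 and Mt2 differences was not tested. Of all genes tested, 60.2% had a larger absolute difference than Mt1 in AAP against PBS, and 32.1% in HAN against PBS. The fold interval in HAN against PBS was 0.793 to 1.01.

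**Figure D1:**
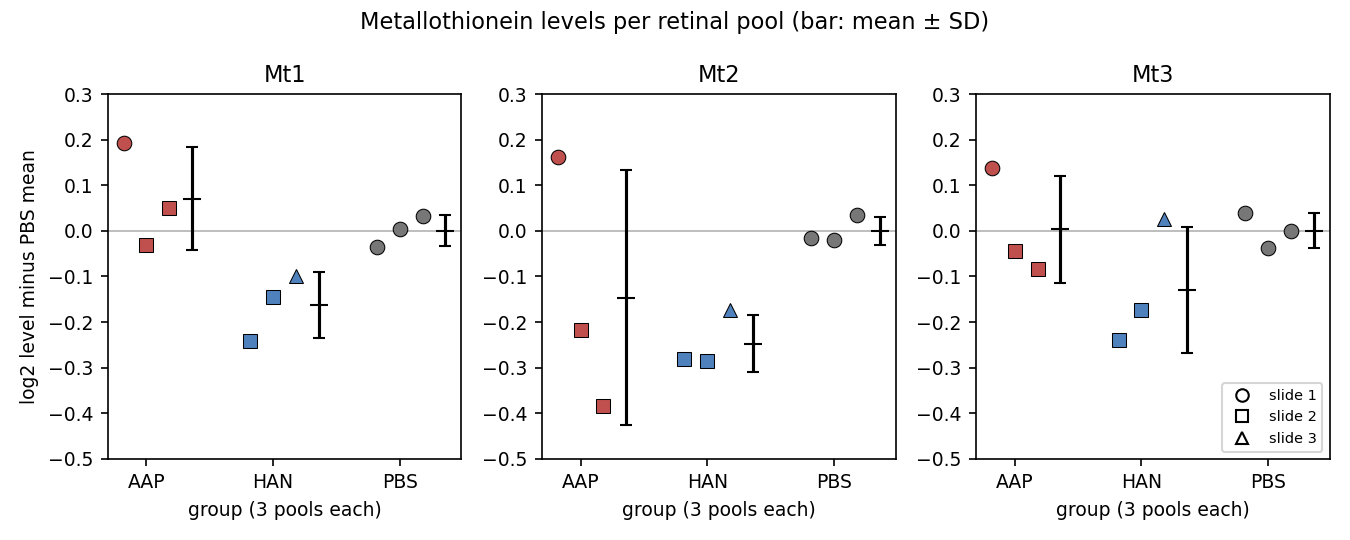
Levels of Mt1, Mt2 and Mt3 in each retinal pool, as log2 level minus the PBS mean (vertical axis), for AAP, HAN and PBS; each point is a pool, its shape gives the slide, and bars are mean ± SD. AAP 1 is the highest pool for all 3 genes, and Mt2 is below the PBS pools in every pool on slides 2 and 3.

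Mt2, the partner of Mt1 in the induced response, showed the widest spread of the 3 members, and that spread lay within AAP. Its log2 levels were 4.24, 3.86 and 3.69 in AAP 1, AAP 2 and AAP 3, then 3.80, 3.79 and 3.90 in HAN 1, HAN 2 and HAN 3, and 4.06, 4.06 and 4.11 in PBS 1, PBS 2 and PBS 3. AAP 1 lay above and AAP 2 and AAP 3 below every PBS pool, and all 3 HAN pools lay below them. The SD was 0.28 in AAP, 0.06 in HAN and 0.03 in PBS. Relative to the PBS mean, Mt2 stood at 1.12-fold in AAP 1 and 0.766-fold in AAP 3.

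Mt2 differed by -0.15 in AAP against PBS (95% interval -0.44 to 0.15, limma adjusted p = 0.844) and by -0.25 in HAN against PBS (-0.54 to 0.05, adjusted p = 0.573). As folds these were 0.903 (0.735 to 1.11) and 0.843 (0.686 to 1.04). The difference in HAN against PBS was exceeded in size by 17.7% of all genes. Without AAP 1 the AAP estimate was -0.30 (adjusted p = 0.394), and without AAP 3 it was -0.03 (adjusted p = 1.00).

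Mt3, the neural form, was close to the PBS level in AAP and spread more widely in HAN. Its log2 levels were -0.87, -1.05 and -1.09 in AAP 1, AAP 2 and AAP 3, then -1.25, -1.18 and -0.98 in HAN 1, HAN 2 and HAN 3, and -0.97, -1.05 and -1.01 in PBS 1, PBS 2 and PBS 3. HAN 1 and HAN 2 were the lowest arrays and HAN 3 fell inside the PBS range, so the groups overlapped in both comparisons. Mt3 differed by 0.00 in AAP against PBS (-0.21 to 0.21, limma adjusted p = 0.997), a fold of 1.00, and by -0.13 in HAN against PBS (-0.34 to 0.08, adjusted p = 0.677), a fold of 0.914. With respect to size, 98.0% of all genes differed more than Mt3 in AAP against PBS.

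The comparison of the peptides, at the same labelled dose and day, gave the clearest separation for Mt1. Mt1 was higher in every AAP pool than in every HAN pool, with a difference of 0.23 (95% interval 0.06 to 0.40), or 1.17-fold. Its unadjusted limma p was 0.0146 and its adjusted p was 0.574, so it did not pass over all genes. In the same comparison the 13 rod markers had a median of 0.20, and 11 of them lay above 0. By pool, the rod median relative to PBS was -0.16, 0.00 and 0.22 in AAP 1, AAP 2 and AAP 3. It ran from -0.21 to -0.14 in HAN and from -0.15 to 0.10 in PBS. Mt1 was highest in AAP 1, where the rod median was within the HAN range. The part of the rod markers in the Mt1 difference was not tested. Mt2 and Mt3 overlapped between AAP and HAN and differed by 0.10 (-0.20 to 0.40, adjusted p = 0.777) and 0.13 (-0.08 to 0.34, adjusted p = 0.630). An adjusted p above the threshold does not show that the peptides act alike on Mt2 or Mt3. The probe values of AAP 1, the pool with raised muscle and cornea markers, enter this difference: without it the Mt1 estimate was 0.17, and with AAP 2 as the lone AAP pool it was 0.13.

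**Figure D2:**
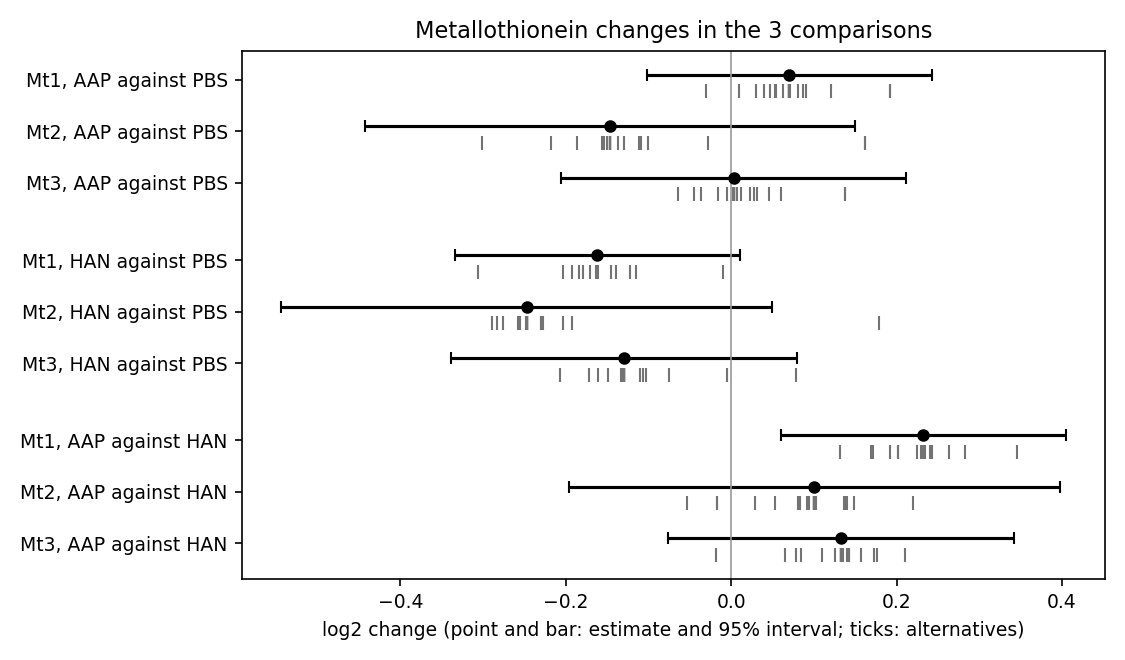
Log2 change of each metallothionein in the 3 comparisons (horizontal axis), with points and bars for the estimate and its 95% interval and grey ticks for the estimates under the alternative settings. The interval for Mt1 in AAP against HAN, 0.06 to 0.40, is the one that does not include 0; the others include it.

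limma called 0.00418% of the 23895 genes in AAP against PBS, 0.00418% in HAN against PBS and 0% in AAP against HAN at an adjusted p under 0.05. Of the 9 gene and comparison pairs of the members, 0 were called and 1 had an unadjusted p under 0.05; 6.78%, 9.65% and 8.54% of all genes had one in the 3 comparisons. Groups did not overlap in 3 of the 9 pairs, namely Mt1 and Mt2 lower in HAN than in PBS and Mt1 higher in AAP than in HAN, and 10.4% and 7.52% of all genes separated in those directions. In either direction 20.9% of genes separated in HAN against PBS, where 2 of 3 members did, and 14.3% in AAP against HAN, where 1 of 3 did; the share of genes lower in every AAP pool than in every HAN pool was 6.82%. In AAP against PBS 0 of 3 members separated, where 12% of genes did, 6.43% higher and 5.53% lower. The comparisons share the PBS or peptide pools, so their counts are not independent. A moderated F test of any difference among the 3 groups gave adjusted p = 0.572 for Mt1, 0.654 for Mt2 and 0.695 for Mt3, where 0.00418% of all genes passed.

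Mt2 and Mt3 levels did not overlap between slide 1 and slide 2, though the gap for Mt3 was narrow. The share of all genes that separate between these slides was not computed, so whether this is unusual is not known. For Mt2 the 4 arrays of slide 1 lay between 4.06 and 4.24, those of slide 2 between 3.69 and 3.86, and HAN 3 on slide 3 was at 3.90. AAP 1, on slide 1, was thus with or above the PBS pools, and AAP 2 and AAP 3, on slide 2, were with the HAN pools. For Mt3 slide 1 ran from -1.047 to -0.872 and slide 2 from -1.249 to -1.055, with HAN 3 at -0.984. For Mt1 slide 1 ran from 4.99 to 5.21 and slide 2 from 4.78 to 5.07, which overlap. All PBS pools were on slide 1, and HAN shares no slide with PBS.

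With slide as a fixed block the Mt2 differences turned to 0.16 (95% interval -0.08 to 0.40, limma adjusted p = 0.909) in AAP against PBS and 0.18 (-0.14 to 0.49, adjusted p = 0.744) in HAN against PBS. The Mt1 differences became 0.19 (adjusted p = 0.826) and -0.01 (adjusted p = 0.986), and those of Mt3 0.14 (adjusted p = 0.917) and -0.01 (adjusted p = 0.993). The AAP values equal those within slide 1, where they rest on AAP 1 alone (limma adjusted p from 0.730 to 0.806). The HAN values reach PBS only through the AAP pools on the 2 slides. Within slide 2, AAP 2 and AAP 3 against HAN 1 and HAN 2 gave 0.20 for Mt1, -0.02 for Mt2 and 0.14 for Mt3 (adjusted p from 0.796 to 0.968). Slide and treatment cannot be told apart for HAN against PBS.

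The members varied together only in part. Over the 9 arrays Mt2 and Mt3 had Pearson's r = 0.78 (exact permutation p = 0.0109, adjusted over 3 pairs 0.0164) and Spearman's rho = 0.85 (exact permutation p = 0.00607, adjusted 0.0182). Without AAP 1 and AAP 3, the arrays farthest from the Mt2 median, r was 0.74. Both relations with Mt3 lost significance with normexp background correction, where r was 0.03 for Mt2 and Mt3 and -0.38 for Mt1 and Mt3, and when AAP 1 was left out (r = 0.65 and 0.68, exact permutation adjusted p = 0.137 for each). Mt1 and Mt3 had r = 0.81 (exact permutation p = 0.0108, adjusted 0.0164), but rho = 0.50 (exact permutation p = 0.178, adjusted 0.250). Without AAP 1 and HAN 1, the arrays farthest from the Mt1 median, r was 0.31. Leaving out the farthest arrays narrows the range of Mt1, which by itself can lower r. This value thus cannot show that the relation rests on those arrays. With 1 pool left out at a time, r ran from 0.67 to 0.90. Mt1 and Mt2 had r = 0.62 (exact permutation p = 0.0728, adjusted 0.0728) and rho = 0.43 (exact permutation p = 0.250, adjusted 0.250), with r = 0.21 without AAP 1 and HAN 1. The 9 arrays fall into 3 treatment groups and 3 slides, which these values do not remove.

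Removing the group means left r = 0.77 for Mt2 and Mt3, 0.76 for Mt1 and Mt3 and 0.73 for Mt1 and Mt2, as a description. Within slide 1, r was 0.87, 0.81 and 0.98 for these pairs, and within slide 2 it was 0.03, 0.91 and -0.39, each over 4 arrays. Mt2 and Mt1 lay farthest apart in AAP 3, where Mt1 was 0.05 above the PBS mean and Mt2 was 0.38 below it (-0.38). The difference Mt2 minus Mt1, set to 0 for the PBS mean, was -0.03, -0.19 and -0.43 in AAP 1, AAP 2 and AAP 3, between -0.14 and -0.04 in HAN, and between -0.02 and 0.02 in PBS. Mt2 was thus lower relative to Mt1 in all 6 peptide pools than in the PBS pools. The gap was very small for AAP 1, at -0.030 against -0.023 in PBS 2. All 3 PBS pools were on slide 1. The share of gene pairs that separate in this way was not computed.

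**Figure D3:**
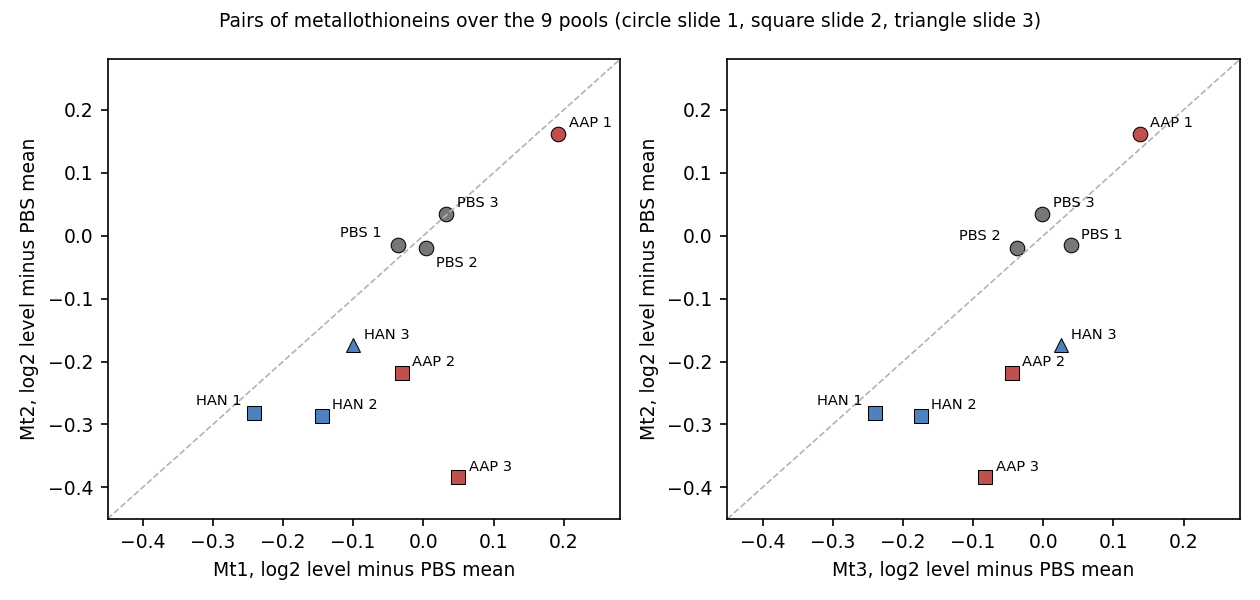
Log2 level minus the PBS mean of Mt2 (vertical axes) against Mt1 (left) and Mt3 (right), each point a labelled pool, with shapes for slides and a dashed line of equal change. AAP 3 lies farthest below the line, at 0.05 for Mt1 and -0.38 for Mt2, and the slide 1 pools lie along it.

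No gene of the zinc and copper lists passed the test either. Of 13 measured zinc importers of the Slc39a family 0 passed in any comparison, with medians of -0.09 in AAP against PBS and -0.07 in HAN against PBS, where the medians of all genes were 0.00 and 0.00. The importers with the smallest F p-values were Slc39a10 (-0.24 and 0.00 in AAP and HAN against PBS), Slc39a2 (-0.11 and -0.27), Slc39a1 (-0.33 and -0.06) and Slc39a13 (-0.10 and -0.14). Of 9 genes of the Slc30a family, listed together as zinc exporters, 0 passed, with medians of -0.03 and -0.07. Whether each of them moves zinc was not examined.

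Slc30a9, listed with the exporters, had the lowest adjusted p of these genes in both comparisons with PBS. Relative to PBS it was at -0.24, -0.26 and -0.25 in AAP 1, AAP 2 and AAP 3, then at -0.25, -0.31 and -0.27 in HAN 1, HAN 2 and HAN 3, and at -0.04, 0.04 and -0.01 in PBS 1, PBS 2 and PBS 3. No peptide pool overlapped a PBS pool, a separation that 5.53% of all genes showed in this direction in AAP against PBS and 10.4% in HAN against PBS. Slc30a9 was named for its small F p-value. The differences were -0.25 in AAP against PBS (95% interval -0.38 to -0.13, limma adjusted p = 0.627) and -0.28 in HAN against PBS (-0.40 to -0.15, adjusted p = 0.360), which did not pass; both use the same PBS pools. The other named genes of the Slc30a list were Slc30a10 (-0.16 and 0.22), Slc30a4 (0.04 and -0.07) and Slc30a7 (0.12 and 0.00).

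Of 13 copper handling genes 0 passed, with medians of 0.00 in AAP and -0.02 in HAN against PBS. The copper transporter gene Slc31a2 was at 0.20 and 0.18, Cox17, a copper chaperone of the mitochondrion, at 0.42 and -0.73, ceruloplasmin (Cp), a copper-binding ferroxidase, at -1.06 and -0.18, and the copper pump Atp7b at 0.27 and 0.33. The AAP value of Cox17 rests on AAP 2, at 1.21, with AAP 1 and AAP 3 at 0.01 and 0.04, and Cp was lowest in AAP 3, at -1.91. Of 9 genes comprising Mtf1 and reported targets 0 passed, with medians of -0.04 and 0.00. Of these, Csrp1 was at 0.20 and -0.05, placental growth factor (Pgf) at -0.44 and 0.01, and the iron exporter Slc40a1 at -0.40 and -0.22, beside Slc39a10 above. In these 4 lists the lowest limma adjusted p was 0.627 in AAP against PBS and 0.360 in HAN against PBS.

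The known inducers of Mt1 and Mt2 other than metals were represented by lists of glucocorticoid-induced genes and of interleukin-6, STAT3 and reactive glia genes. Of 12 glucocorticoid-induced genes 0 passed, with medians of 0.04 in AAP and 0.06 in HAN against PBS. The clock gene Per1 was at 0.28 and 0.15, the kinase gene Pdk4 at 1.18 and 0.21, glutamine synthetase (Glul) at 0.18 and 0.08 and the transcription factor Zbtb16 at -0.05 and 0.19. Pdk4 stood at 2.71 and 0.80 above the PBS mean in AAP 1 and AAP 3, the pools with raised muscle markers, and at 0.03 in AAP 2, where it was not well above background; HAN 2 was at 0.66.

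The interleukin-6 and reactive glia list had lower values in AAP without passing the test. Of its 24 measured genes 21 lay below 0 in AAP against PBS, with a median of -0.69, and 20 lay below 0 in HAN against PBS, with a median of -0.22; 49.1% and 48.6% of all genes lay below 0. In AAP against HAN 22 of the 24 lay below 0, with a median of -0.44, where 49.7% of all genes did. Single pools moved these medians: without AAP 3 they were -0.39 in AAP against PBS and -0.16 in AAP against HAN, and without AAP 1 they were -0.997 and -0.721. The HAN against PBS median was -0.35 without HAN 1 and -0.10 without HAN 2, and -0.03 with normexp background correction. None of the 24 passed over all genes (lowest limma adjusted p = 0.627 in AAP and 0.499 in HAN against PBS), while 12 and 2 of them had an unadjusted p under 0.05. Of all genes, 6.78% and 9.65% had one, so the count in HAN is near that share. Timp1, an inhibitor of matrix metalloproteinases, was at -2.38 and -0.76, the transcription factor Cebpd at -1.41 and -0.43, the acute-phase gene Lcn2 at -1.68 and -0.97 and Gfap, the filament of reactive glia, at -1.26 and -0.18. In HAN, Timp1 and Cebpd were lowest in HAN 2, at -1.41 and -1.04, and Lcn2 ran from -2.81 in AAP 3 to -0.74 in AAP 1 within AAP. Of 16 measured microglia markers 15 lay below 0 in each comparison with PBS, with medians of -0.77 in AAP and -0.54 in HAN; their part in these values was not tested. Earlier results of these data were known when the list was drawn up, so its direction is not independent evidence.

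Pool by pool, the list and the metallothioneins can be set side by side. The list median lay at -0.46, -0.57 and -1.36 relative to PBS in AAP 1, AAP 2 and AAP 3, at -0.09, -0.63 and -0.17 in HAN 1, HAN 2 and HAN 3, and between -0.07 and 0.07 in PBS. In AAP 3, its lowest pool, Mt2 was also at its lowest (-0.38), Mt3 was at -0.08 and Mt1 at 0.05. In HAN 1, where the list was closest to PBS among the peptide pools, all 3 metallothioneins were lower than in PBS, at -0.24 for Mt1, -0.28 for Mt2 and -0.24 for Mt3. In AAP 1 Mt1, Mt2 and Mt3 were at their highest, at 0.19, 0.16 and 0.14. In the same order they were at -0.03, -0.22 and -0.05 in AAP 2. They were at -0.14, -0.29 and -0.17 in HAN 2, and at -0.10, -0.17 and 0.03 in HAN 3. With slide as a fixed block the list median was -0.46 in AAP against PBS and 0.18 in HAN against PBS. The median of the 16 Mueller glia and astrocyte markers was -0.03 in AAP and -0.05 in HAN against PBS and single markers ran from -0.42 to 0.27 in AAP and from -0.35 to 0.11 in HAN. In pooled tissue, fewer cells of a type and less RNA per cell cannot be told apart.

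**Figure D4:**
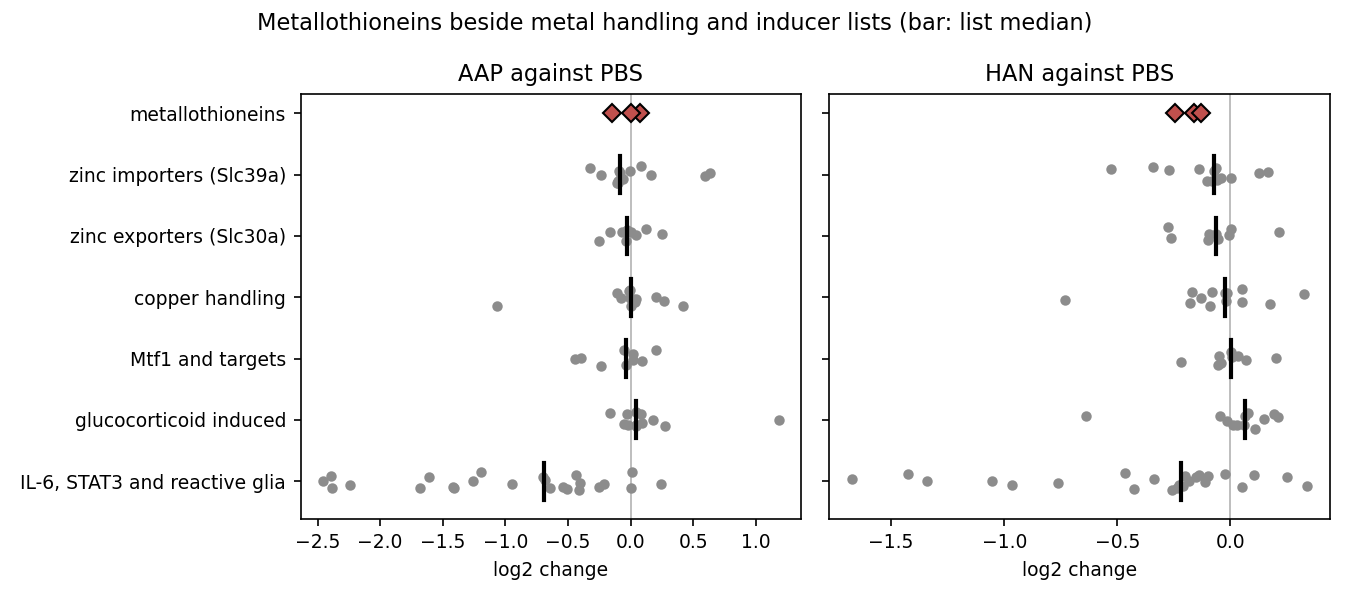
Log2 change of the 3 metallothioneins (diamonds) and of each measured gene of 6 lists (dots, with a bar at the list median) in AAP against PBS and HAN against PBS; the horizontal scales of the panels differ. The metallothioneins lie within 0.25 of 0, while the interleukin-6 and reactive glia list has a median of -0.69 in AAP.

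The genes whose levels were most like each member over the 9 arrays, by Pearson's r among 14381 curated genes above background on all arrays, are given as a description. For Mt1 they were the pyruvate carrier gene Mpc1 (0.93), Cda (0.92), the retinol-binding protein gene Rbp4 (0.92), Kyat3 (0.90) and Oog2 (0.90). For Mt2 they were Endou (0.96), the iron carrier transferrin (Trf, 0.95), Arap1 (0.95), filamin C (Flnc, 0.95) and Apoc1 (0.94). For Mt3 they were Tex22 (0.97), thrombospondin 1 (Thbs1, 0.90), Vav3 (0.90), the cell cycle inhibitor Cdkn1a (0.90) and Slc6a20a (0.89). No gene was named for more than 1 member. The arrays share slides, depth and tissue admixture, and the highest of 14381 values of r over 9 points will be high for any gene.

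The fourth gene of the cluster, Mt4, which is typical of stratified epithelium and was no member, was dim. It was well above background in AAP 1, AAP 2 and all 3 HAN pools but not in AAP 3, and in PBS 1 and PBS 3 but not in PBS 2. Its processed signal was 12.2 to 30.2 in AAP, 27.9, 162 and 48.2 in HAN 1, HAN 2 and HAN 3, and 18.1 to 34.6 in PBS. HAN 2 thus stood apart for Mt4 and for none of the 3 members.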

How the data were processed

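Single-dye (Cy3) Agilent arrays of 9 retinal pools were used. Per the file headers, the authors quantified spot intensity with Agilent Feature Extraction 11.0.1.1, and the deposited processed signal is background-subtracted within each array and not scaled between arrays. The deposited value table equals it within a relative tolerance of 1e-04 for at least 99.8% of probes per array; its column medians were 165 to 298 intensity units. The sources used here do not state how groups were compared.

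Control and outlier spots were left out, the array's 75th percentile was subtracted on the log2 scale, and spots of a probe were averaged. Probes well above background on all arrays of at least 1 group were kept, with the highest mean probe per gene. Accessions matched 26055 of 39429 probes to symbols of GRCm38.p6, 19751 genes before the filter. A probe without a symbol was kept under its accession and counted as a gene. The genes tested thus include unnamed accessions, and whether some of them repeat a named gene was not examined. limma 3.58.1 (R 4.3.3) fitted group means over 9 arrays; two-sided p-values for 23895 genes were adjusted by Benjamini and Hochberg's method, with 0.05 as threshold. The fit was tried on simulated data with planted changes larger than those of the members and no slide effect. That trial does not speak to changes of the size reported here. The files hold no mean signal column, so normexp (offset 50) used the median signal. Probe and protein sequences were not used here, so whether the Mt1 and Mt2 probes each read only their own gene was not examined. The number of arrays limits the precision.

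Members and lists were chosen with earlier results of these data known. Named were all member probes, the 4 list members with the smallest F p-value, and the 5 genes most correlated with each member.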

Additional observations from a re-analysis of the deposited data

How the results depend on the processing

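None of the 9 changes of Mt1, Mt2 and Mt3 passed under any alternative (lowest limma adjusted p = 0.177). Each change had 23 or 24 alternatives, which gave 213 estimates, and 14 of these turned the sign. The estimates are not independent, since 1 fit gives several of them and the fits share arrays. With normexp, Mt3 was at 0.0787 in HAN against PBS and -0.0188 in AAP against HAN. With the array median as scale Mt3 was at -0.0364 in AAP against PBS, and with the authors' value table at -0.00465. With slide as a fixed block Mt2 was at 0.16 in AAP against PBS, 0.18 in HAN against PBS and -0.0171 in AAP against HAN, as within slide 1 (0.16) and within slide 2 (-0.0171); no slide holds both HAN and PBS. Without AAP 1 and AAP 3, Mt1 was at -0.0309 and Mt3 at -0.0451 in AAP against PBS. Leaving out 1 pool at a time, Mt3 ran from -0.0640 (without AAP 1) to 0.0463 in AAP against PBS and Mt2 from -0.0538 (without AAP 1) to 0.22 in AAP against HAN. Other settings gave larger HAN against PBS estimates or narrower intervals. With array weights the estimates were -0.18 for Mt1, -0.28 for Mt2 and -0.16 for Mt3, with 95% intervals below 0 for all 3 (limma adjusted p from 0.177 to 0.265). With only HAN and PBS fitted, the intervals of Mt1 (-0.31 to -0.01) and Mt2 (-0.39 to -0.10) lay below 0, as they did with the array median as scale. The cause of these shifts was not tested.

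Same-numbered pools deviated together with r over 0.1 in 3 of 9 pairs. The highest r was 0.40, for AAP 1 and PBS 1, which also share slide 1. Pools with different numbers were not compared, so the check cannot tell whether the replicate numbers pair the pools. The replicate block left every estimate in place, for example 0.23 for Mt1 in AAP against HAN (limma adjusted p = 0.630), and changed no call of a member.

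For the pairs, r under normexp was -0.38 for Mt1 and Mt3 (exact permutation adjusted p = 0.487) and 0.0309 for Mt2 and Mt3 (adjusted p = 0.865), so neither passed. Leaving out 1 pool at a time, r ran from 0.36 to 0.91 for Mt1 and Mt2 (0.91 without AAP 3, exact permutation adjusted p = 0.00536), from 0.67 to 0.90 for Mt1 and Mt3 and from 0.65 to 0.84 for Mt2 and Mt3. Both pairs with Mt3 lost significance when AAP 1 (exact permutation adjusted p = 0.137) or HAN 2 (0.0574) was left out, and Mt1 and Mt3 also when HAN 1 (0.103) was.

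Calls over all genes ran from 0 to 79 in AAP against PBS (1 in the fit reported, 46 with the slide block, 79 within slide 1, 12 without AAP 2), from 0 to 3 in HAN against PBS (1 reported) and from 0 to 13 in AAP against HAN (0 reported, 13 without AAP 2).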
